A study of Mus musculus with 14 samples.

Results

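The CXC chemokine ligands are small secreted proteins that draw leukocytes along a gradient, and 10 of their genes were followed here in livers of mice with acute liver failure. The members were the rows of the count files whose gene symbol was Cxcl1, Cxcl2, Cxcl3, Cxcl5, Cxcl9, Cxcl10, Cxcl11, Cxcl12, Cxcl13 or Cxcl16, which are 10 of 55357 genes, each with 1 row. All 10 passed the filter on low counts, which left 12915 genes. The series holds poly(A) RNA sequencing of whole liver from male C57BL/6 mice aged 5 to 6 weeks before 1 week of acclimatisation. In the model group, 8 livers were from mice injected into the peritoneum with LPS (lipopolysaccharide, from the outer membrane of Gram-negative bacteria) at 10 µg/kg and D-GalN (D-galactosamine, which depletes uridine nucleotides in hepatocytes) at 300 mg/kg. In the control group, 6 livers were from mice given normal saline. All livers were taken 24 h after injection. The labels state neither that each liver came from a separate animal nor which were handled together, and the p-values below therefore cover only sample-to-sample spread, part of which may be technical. D-GalN sensitises hepatocytes to LPS, and no group received only 1 of the agents, so their effects cannot be told apart.

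CXC chemokines act through receptors on leukocytes and fall into classes by a short stretch of amino acids before the first cysteine pair. Cxcl1, Cxcl2, Cxcl3 and Cxcl5 carry the glutamate-leucine-arginine (ELR) motif and attract neutrophils through Cxcr2. Cxcl9, Cxcl10 and Cxcl11 lack it, are classic interferon-induced genes and attract T and NK cells through Cxcr3. Cxcl12 is made at rest by stromal cells and holds leukocytes and progenitors through Cxcr4, Cxcl13 attracts B cells through Cxcr5, and Cxcl16, a membrane-anchored ligand that can be shed, binds Cxcr6. In the liver, such ligands can come from hepatocytes, Kupffer cells, endothelium, stellate cells and arriving leukocytes, and in whole tissue a change in the cells present cannot be told apart from a change in RNA per cell. The strain matters for 1 member: C57BL/6 mice are known to carry a frameshift in Cxcl11, and RefSeq lists it as a transcribed pseudogene, so its reads measure a transcript and not a working chemokine.

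Promoter sequences were available for 7 of the 10 members in the RefSeq table (build GRCm38.p6). The 250 bases before the start of 5 induced members and of Cxcl12 are shown because the letters near the start differ between the ELR-positive genes, Cxcl10 and the others. Lower case is the promoter, 5′ to 3′ on the strand of the gene, and capitals mark matches to the NF-kB consensus or, nearest the left end in Cxcl10 only, to the interferon response element core (GAAA, any 2 bases, GAAA).
Cxcl1 (chr5:90890995-90891244, + strand): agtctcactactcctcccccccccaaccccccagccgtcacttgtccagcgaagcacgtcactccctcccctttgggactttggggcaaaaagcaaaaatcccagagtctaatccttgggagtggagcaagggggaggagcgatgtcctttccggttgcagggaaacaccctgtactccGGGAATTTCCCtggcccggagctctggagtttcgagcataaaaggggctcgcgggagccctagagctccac
Cxcl2 (chr5:90903649-90903898, + strand): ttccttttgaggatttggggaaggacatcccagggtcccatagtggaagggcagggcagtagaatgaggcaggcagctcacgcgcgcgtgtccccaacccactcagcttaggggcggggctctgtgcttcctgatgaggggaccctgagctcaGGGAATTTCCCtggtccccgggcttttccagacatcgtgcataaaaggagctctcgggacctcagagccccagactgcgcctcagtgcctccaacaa
Cxcl3 (chr5:90785851-90786100, + strand): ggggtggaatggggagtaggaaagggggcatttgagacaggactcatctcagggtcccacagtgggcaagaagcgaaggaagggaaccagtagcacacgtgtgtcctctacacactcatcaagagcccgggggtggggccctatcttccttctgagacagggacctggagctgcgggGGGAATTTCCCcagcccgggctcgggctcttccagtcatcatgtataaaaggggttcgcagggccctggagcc
Cxcl9 (chr5:92328080-92328329, - strand): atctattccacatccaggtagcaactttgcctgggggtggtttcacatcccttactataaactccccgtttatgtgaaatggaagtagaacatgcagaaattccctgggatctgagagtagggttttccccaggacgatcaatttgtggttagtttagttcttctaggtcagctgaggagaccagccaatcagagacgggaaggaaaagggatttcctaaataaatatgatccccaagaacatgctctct
Cxcl10 (chr5:92348890-92349139, - strand): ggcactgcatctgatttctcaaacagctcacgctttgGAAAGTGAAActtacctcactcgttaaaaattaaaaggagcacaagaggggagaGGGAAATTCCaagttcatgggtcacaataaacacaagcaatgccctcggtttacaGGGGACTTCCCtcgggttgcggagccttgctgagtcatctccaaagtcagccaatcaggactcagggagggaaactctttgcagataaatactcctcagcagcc
Cxcl12 (chr6:117168285-117168534, + strand): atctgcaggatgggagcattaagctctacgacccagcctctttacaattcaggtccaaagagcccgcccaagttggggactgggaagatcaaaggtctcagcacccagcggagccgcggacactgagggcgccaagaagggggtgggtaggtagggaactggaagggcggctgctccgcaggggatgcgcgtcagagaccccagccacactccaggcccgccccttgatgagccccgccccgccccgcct

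The longest run of letters that the promoters of Cxcl1, Cxcl2 and Cxcl3 share was the 11-base run GGGAATTTCCC, which begins 71, 97 and 73 bases before the start, respectively. It holds 2 overlapping matches to the NF-kB consensus, 1 on each strand. Of 32851 promoters in the table, 14 held this run (0.0426%), while 2382 (7.25%) held a match to the NF-kB consensus on either strand. The run was picked from these 3 paralogues, so its presence in them was fixed in advance. An exact run and a consensus with free letters are also not alike, so the 2 shares are not to be compared. The 14 promoters belong to 14 genes, of which 6 were tested in these livers. Besides the 3 chemokines, Il16, a leukocyte attractant, was higher in the model (log2 fold change 1.57, SE 0.22, edgeR adjusted p = 1.27e-05). Hpn and Zfp84 did not pass (edgeR adjusted p = 0.0827 and 0.974). By the same test 26.6% of all genes tested were higher. In Cxcl10 the NF-kB consensus matched at 159 to 150 and at 104 to 94 bases before the start, the latter by 3 overlapping matches. Cxcl10 was also the only 1 of the 7 with the interferon core, at 213 to 204 bases before the start. That core occurs in 978 of the promoters (2.98%). No match to either was found in this window for Cxcl9, Cxcl12 or Cxcl13. The STAT element TTCNNNGAA, found in 7.02% of promoters, was in none of the 7, and the letters TATAAA, in 12.4%, were in those of Cxcl3, Cxcl9 and Cxcl13. The TATAAA match lay 30 to 25, 195 to 190 and 46 to 41 bases before the start, respectively, so that of Cxcl9 was much farther away. A match describes letters only, and all motifs were searched on both strands.

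Gene counts summed to between 10329469 and 16639972 per model library and between 7914120 and 14463540 per control library. The share of ribosomal RNA in gene counts was 0.435% to 2.89%, except for 6.67% in model 3, 4.89% in model 4 and 6.94% in control 2. The symbols counted for it include mitochondrial ribosomal RNA, so it overlaps the mitochondrial share given below. More genes were detected in each model library (17669 to 18629) than in any control (16064 to 17442). The mitochondrial share of gene counts was 6.18% to 8.57% in the controls and 6.46% to 20.8% in the model, highest in model 3 (20.8%) and model 4 (14.4%), and the part of these differences in the ligand levels was not tested. Levels are CPM, counts scaled to a common library size with trimmed-mean (TMM) factors. The hepatocyte markers, checked against the tissue label, summed over their 10 genes to 56221 to 78677 CPM in the controls and 86614 to 99193 CPM in the model. Of these genes 4 were called higher, none lower and 6 not called. Alb, called higher, was the largest part of the sums, with means of 29439 CPM in the controls and 52287 CPM in the model. Throughout, a gene was called at a Benjamini-Hochberg adjusted p under 0.05 by edgeR's quasi-likelihood test.

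In the model livers 9 of the 10 ligands were higher and 1, Cxcl12, was lower. Of all 12915 genes tested, 26.6% were called higher and 21.3% lower. For all 9 higher members the lowest model liver lay above the highest control liver, a pattern that 14.6% of the tested genes showed. Of these members, Cxcl2, Cxcl3 and Cxcl5 had 3, 0 and 2 counts over all controls. They passed the filter on low counts only through the model livers, so their higher calls and lack of overlap were largely set by that filter. The ranges overlapped for Cxcl12, and 8.63% of genes had every model liver below every control liver. The median log2 fold change was 5.89 over the 10 members and 0.0099 over all genes tested. When libraries were scaled by their totals alone, 2533 genes were higher and 3955 lower, against 3437 and 2751, and the median of all genes moved to -0.23. Each member kept its direction and its call under that scaling.

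**Figure D1:**
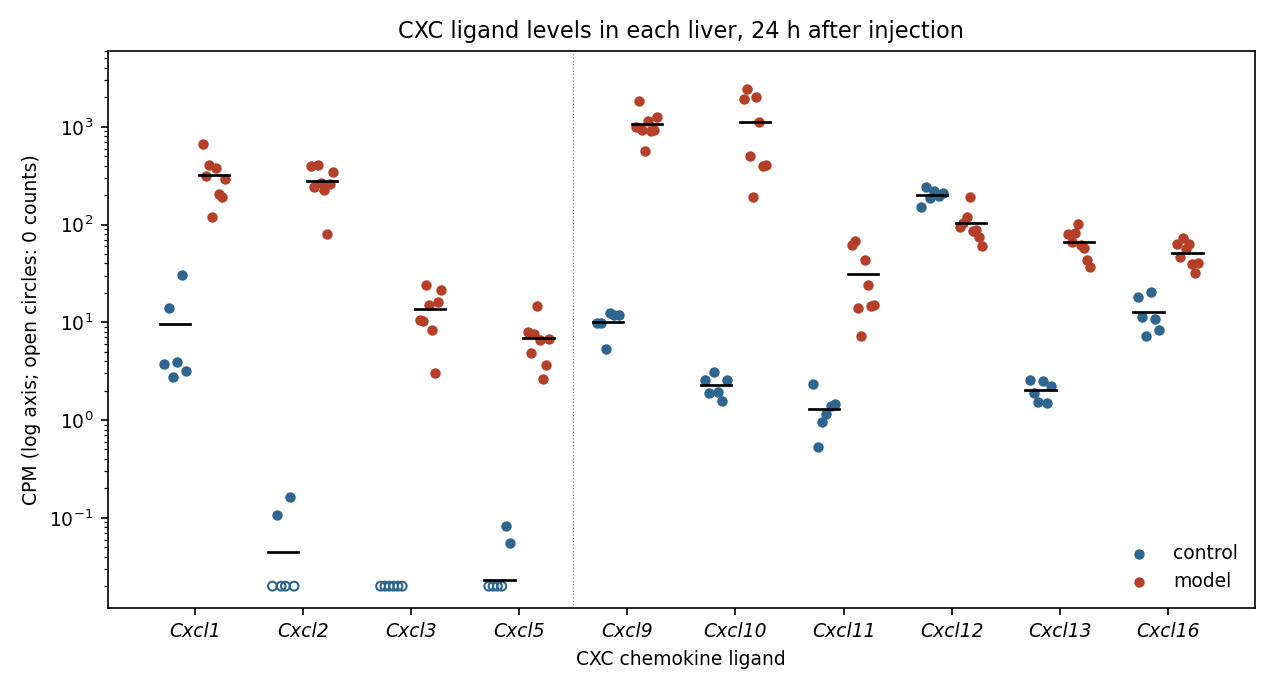
CPM of each CXC ligand (log axis) in 6 control livers (blue) and 8 model livers (red), with the group mean as a black line; open circles at the bottom mark livers with 0 counts. For 9 ligands all model livers sit above all control livers, and for Cxcl12 model 4 alone reaches into the control range.

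The ELR-positive ligands were close to absent from the control livers, apart from Cxcl1. Cxcl2, also called MIP-2, a neutrophil attractant made by macrophages among other cells, had 3 counts over all 6 controls. In the model it ranged from 80.1 to 407 CPM, with a median of 264 CPM. Model 6 was lowest and the other 7 livers were at 228 CPM or more. The model mean was 6971 times the pooled control level, with an exact 95% Poisson interval from 2385 to 33801 that covers counting error only. The fitted log2 fold change was 12.43 (SE 0.62, edgeR adjusted p = 8.83e-11), or 13.38 without control 5, which held 2 of the 3 counts.

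Cxcl3, a further neutrophil attractant of the same cluster of genes, was at 0 in all 6 controls and from 3.05 to 24.1 CPM in the model, with a median of 12.8 CPM. Against 3 counts over the control group, which is 0.0401 CPM, its mean of 13.6 ± 6.98 CPM (SD, n = 8) was at least 340-fold higher (edgeR adjusted p = 5.11e-07). Again model 6 was the lowest liver. Cxcl5, an attractant known from epithelial cells and platelets, had 2 counts over the controls, in control 5 and control 6. It ranged from 2.66 to 14.6 CPM in the model (median 6.74 CPM), a ratio of 256 to the pooled controls (exact 95% Poisson interval 71.0 to 2116; edgeR adjusted p = 1.86e-08). Model 6 was lowest for this ligand too, and model 4 was highest.

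Cxcl1, also called KC, a main neutrophil attractant of the mouse, differed from the other 3 in that every control liver expressed it. Control levels ran from 2.78 to 30.3 CPM with a median of 3.84 CPM, and model levels from 119 to 663 CPM with a median of 303 CPM. Control 5 at 30.3 CPM and control 2 at 14.1 CPM stood above the other controls, at 2.78 to 3.96 CPM. Ribosomal RNA made up 1.07% in control 5 and 6.94% in control 2, and its part in this was not tested. The log2 fold change was 5.05 (SE 0.64, edgeR adjusted p = 4.41e-06), a 33.2-fold difference. Without control 5 it was 5.86. Both means carried a large spread, 321 ± 169 CPM (SD, n = 8) and 9.68 ± 11.0 CPM (SD, n = 6). Cxcl1, Cxcl2 and Cxcl3 are paralogues, and reads that aligned to several places, 13.4% to 18.6% of all entries of a library, were set aside by the counting, so their counts may lack reads of shared stretches.

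Markers of neutrophils, the cells these ligands attract, were higher in the same livers. All 11 listed neutrophil genes were called higher, and their summed level was 1298 to 2977 CPM in the model against 3.85 to 16.7 CPM in the controls, where Ly6g was at 0 in every liver. Neutrophils also make Cxcl2 and its relatives, and their part in the ligand counts was not tested. Markers of cholangiocytes, an epithelium that can make Cxcl5, were higher for 5 of 5 tested genes. Their sums were 60.1 to 126 CPM in the model and 31.2 to 56.4 CPM in the controls. On average Spp1 alone made up most of these sums, with means of 65.7 and 36.7 CPM. The part of cholangiocytes was not tested either.

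Among the interferon-induced ligands, Cxcl9 and Cxcl10 had the highest mean levels of the family in the model, and Cxcl11 stayed far below them. Cxcl9 ranged from 5.27 to 12.3 CPM in the controls (median 10.8 CPM) and from 560 to 1855 CPM in the model (median 971 CPM). The groups did not overlap, and the log2 fold change was 6.73 (SE 0.34, edgeR adjusted p = 8.42e-11), or 106-fold. Cxcl10, also called IP-10, ranged from 1.57 to 3.08 CPM in the controls (median 2.25 CPM) and from 192 to 2449.7 CPM in the model (median 814 CPM). Its log2 fold change was 8.94 (SE 0.70, edgeR adjusted p = 1.34e-08), or 491-fold.

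Cxcl10 was the most variable member among the model livers, with a coefficient of variation of 78.4% and a 12.7-fold span from lowest to highest. Model 1, 2, 5 and 6 were at 1929.6, 2449.7, 1999 and 1128 CPM, while model 3, 4, 7 and 8 were at 501, 192, 402 and 412 CPM. No liver lay between 501 and 1128 CPM, a gap of 31.9% of the range on the log2 scale. The largest gaps of Cxcl2, Cxcl3, Cxcl5, Cxcl9 and Cxcl12 took 35.8% to 64.3% of their ranges, each setting off 1 liver. The gap of Cxcl10 therefore does not by itself show separate sets of livers. The lower 4 livers of Cxcl10 include model 3 and model 4, whose ribosomal and mitochondrial shares were the highest in the model. They also include model 8, whose shares of 1.38% and 6.46% were the lowest in the model. The part of either share in the level of Cxcl10 was not tested. Cxcl9 spread less, with a coefficient of variation of 35.1% and a 3.31-fold span. It did not follow the same order of livers, since model 8 (1269 CPM) was above model 1 (1006 CPM).

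The Cxcl11 transcript moved with Cxcl10 at a far lower level. Controls were at 0.530 to 2.31 CPM (median 1.28 CPM) and model livers at 7.24 to 68.7 CPM (median 19.6 CPM), a log2 fold change of 4.58 (SE 0.56, edgeR adjusted p = 2.83e-06). Model 1, 2 and 5 were highest and model 4 lowest. Cxcl10 counts were 26.5 to 46.8 times those of Cxcl11 in the 8 model livers, and 1.11 to 3.60 times in the 6 controls, so the ratio within a library did not overlap between the groups. In the GENCODE annotation of build GRCm38, the pseudogene Gm2673 covers 41.7% of the exonic length of Cxcl11 on the other strand, and Art3 covers 5.91% of that of Cxcl10. The strand setting of the counting is not given in the sources used here. Reads of such overlaps may have been set aside as ambiguous. Monocyte markers, of cells that can make Cxcl9 and Cxcl10, were higher for 7 of 8 genes and lower for none. Their sums were 917 to 1330 CPM in the model and 325 to 768 CPM in the controls. On average Fn1, which was not called, and Lyz2 made up most of these sums. Their means were 452 and 338 CPM in the model and 207 and 193 CPM in the controls. Kupffer cell markers were higher for 3 of 8 and lower for 2, with sums of 319 to 665 CPM and 329 to 472 CPM. On average C6, which was not called, had the highest level of these markers, at 163 CPM in the model and 136 CPM in the controls. Marco, called higher, had means of 118 and 5.89 CPM and weighs on the model sums. The part of either cell type in the ligand levels was not tested.

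The ligands with homeostatic roles split. Cxcl12, also called SDF-1, fell from 152 to 243 CPM in the controls (median 203 CPM) to 61.0 to 193 CPM in the model (median 91.7 CPM). The log2 fold change was -0.97 (SE 0.23, edgeR adjusted p = 0.00185), so the fitted control level was 1.96 times the model level. Model 4, at 193 CPM, lay within the control range, and the other 7 model livers, at 61.0 to 119 CPM, were all below the lowest control. Without model 4, whose ribosomal share was 4.89%, the log2 fold change was -1.16. Cxcl13, also called BLC, rose from 1.48 to 2.57 CPM (median 2.08 CPM) to 37.1 to 102 CPM (median 64.4 CPM). Its log2 fold change was 5.03 (SE 0.29, edgeR adjusted p = 2.70e-10), a 32.6-fold difference with no overlap. Model 4 was again the highest liver and model 7 and model 8 were the lowest, as for Cxcl12, although the 2 genes moved in opposite directions between the groups.

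Cxcl16 showed the smallest rise and the smallest spread. It went from 7.17 to 20.3 CPM in the controls (median 11.0 CPM) to 32.1 to 72.8 CPM in the model (median 50.8 CPM), with a log2 fold change of 2.03 (SE 0.27, edgeR adjusted p = 8.91e-06), or 4.09-fold. Its coefficient of variation over the model livers was 27.4%. Zmynd15 overlaps 18.3% of its exonic length on the other strand.

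Markers of cells that can make Cxcl12 did not move as a block. Of 8 stellate cell markers, 5 were higher and 2 lower, with summed levels of 502 to 993 CPM in the model and 256 to 306 CPM in the controls. Lrat, the enzyme that stores retinol in quiescent stellate cells, was lower (log2 fold change -2.67, SE 0.34), and the matrix gene Dcn was higher (1.70, SE 0.21). Of 8 markers of sinusoidal endothelium, 1, Lyve1, was higher (4.65, SE 0.27) and 4 were lower, with summed levels of 156 to 317 CPM and 144 to 211 CPM. Lyve1 alone had means of 120 CPM in the model and 4.77 CPM in the controls. It made up a large part of the model sums, which therefore do not describe the other markers. None of these markers was at 0 in a whole group, and their part in the level of Cxcl12 was not tested.

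**Figure D2:**
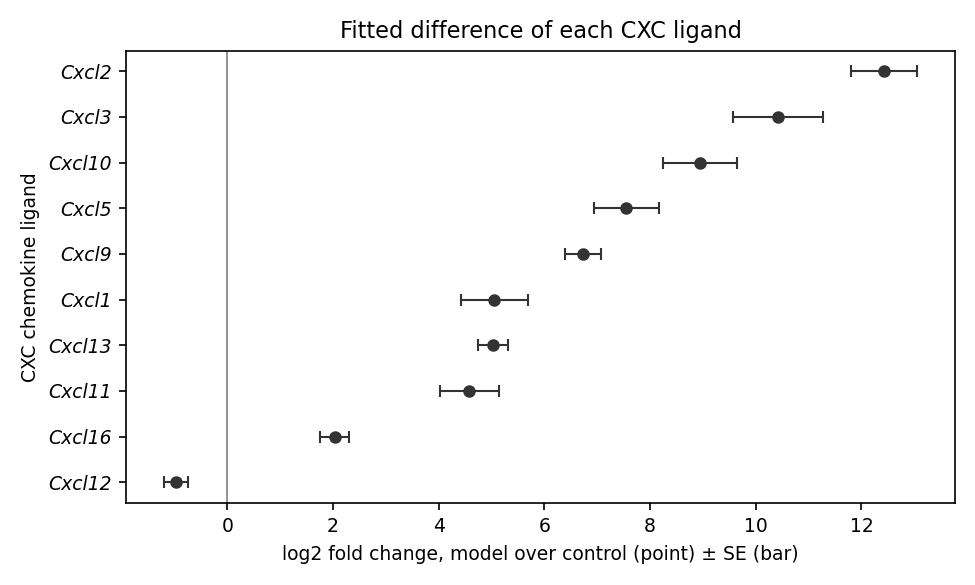
Fitted log2 fold change of each CXC ligand, model over control, as a point with a bar of 1 SE. Values run from 12.43 for Cxcl2 to -0.97 for Cxcl12; those of Cxcl2, Cxcl3 and Cxcl5 rest on 0 to 3 control counts and depend on the prior count of the fit.

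The make-up of the family changed with the group. To compare genes, CPM was divided by exonic length in kilobases, from the GENCODE annotation of build GRCm38. On this scale Cxcl12 made up 61.6% ± 9.10 (SD, n = 6) of the summed level of the 10 ligands in controls and 1.26% ± 1.10 (SD, n = 8) in the model. Its exonic length, 8.18 kb, is a union over isoforms and lowers its value per length. It led the order in all 6 controls, at 24.6 ± 3.83 CPM per kb (SD), with no overlap with the next gene, Cxcl1, at 5.16 ± 5.86 CPM per kb (SD). Below it, Cxcl1 and Cxcl16 were not ordered beyond their spread, with Cxcl1 above Cxcl16 in 2 of 6 controls.

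In the model, Cxcl10 stood at 500 ± 392 and Cxcl9 at 356 ± 125 CPM per kb (SD, n = 8). Their order did not hold across livers, since Cxcl10 led in model 1, 2, 5 and 6 and Cxcl9 in model 3, 4, 7 and 8. Cxcl1 (171 ± 90.1 CPM per kb) and Cxcl2 (135 ± 51.6 CPM per kb) came next, and Cxcl1 was above Cxcl2 in 5 of 8 livers. Cxcl13 followed at 57.8 ± 18.6 CPM per kb and was the only ligand with no overlap with the next 1 down, Cxcl16, at 17.1 ± 4.69 CPM per kb. Cxcl12, Cxcl11, Cxcl3 and Cxcl5 formed the lower end, from 12.6 CPM per kb for Cxcl12 to 3.68 CPM per kb for Cxcl5, and each neighbouring pair among them overlapped.

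Together Cxcl9, Cxcl10 and Cxcl11 held 65.0% ± 13.3 of the model total (SD, n = 8), and the 4 ELR-positive ligands 26.7% ± 9.67. The ELR-positive share was lowest in model 2 (13.9%) and highest in model 3 (39.8%). In controls that share was 4.57% to 5.87% in 4 livers, 16.1% in control 2 and 32.7% in control 5. The summed CPM of the family was 3075 ± 1273 in the model (SD, n = 8) and 239.7 ± 34.4 in the controls (SD, n = 6).

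**Figure D3:**
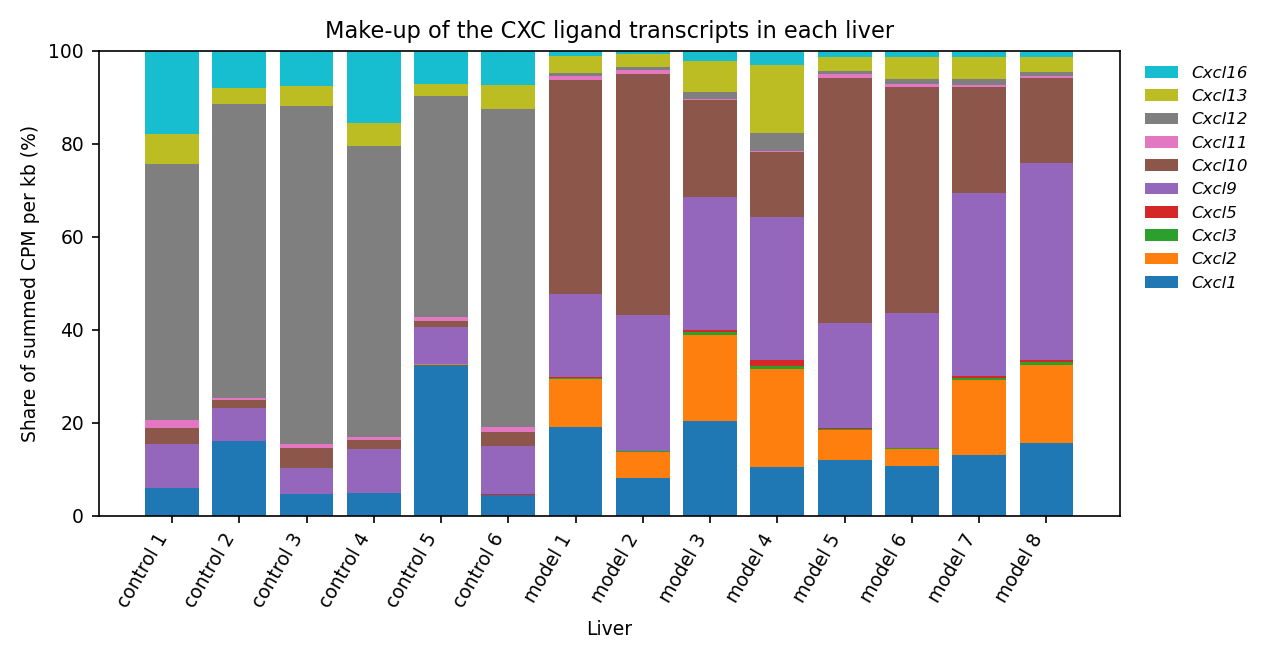
Share of each CXC ligand in the summed CPM per kb of the 10 ligands (%), 1 bar per liver, with 6 controls on the left and 8 model livers on the right. Cxcl12 fills 47.7% to 72.8% of the control bars and 0.611% to 3.88% of the model bars, where Cxcl9, Cxcl10, Cxcl1 and Cxcl2 take over.

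The relations between ligands were taken within the 8 model livers, so that the difference between the groups does not enter. Pearson and Spearman correlations of log2 CPM were computed for all 45 pairs, with exact permutation tests over 40320 pairings, two-sided, and Benjamini-Hochberg adjustment over the 45. No label names a batch within which to repeat them. All pairs share the library and its scaling. Of the 45 pairs, 3 had r of at least 0.8 (6.67%), against 6.28% of all gene pairs at a mean of 1 CPM or more in the model, a share near that of genes at large. The median r was 0.08 for the ligands and -0.0029 for all such pairs. By exact permutation, 2 pairs passed after adjustment and 6 had an unadjusted p under 0.05.

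Cxcl10 and Cxcl11, neighbours on chromosome 5, gave r = 0.98 (exact permutation p = 0.000372, adjusted 0.0167) and rho = 0.90 (exact permutation p = 0.00456, adjusted 0.103). Without the livers farthest from the median of Cxcl10, model 2 and model 4, r was 0.95. The 4 livers highest in Cxcl10 were also the 4 highest in Cxcl11, and 4 livers are too few for a value of r within either set. Leaving out any 1 liver kept r between 0.96 and 0.99, and the adjusted exact permutation p rose above the threshold without model 4 or model 6, up to 0.113. Cxcl9, on the same stretch of the chromosome, gave r = 0.73 with Cxcl11 and 0.69 with Cxcl10, and these relations rest on the outer livers, since without model 2 and model 4 r was 0.12 and 0.03.

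Cxcl12 and Cxcl13 lie on chromosomes 6 and 5. They gave r = 0.91 (exact permutation p = 0.00104, adjusted 0.0234) and rho = 0.95 (exact permutation p = 0.00114, adjusted 0.0513). Without model 4 and model 8 r was 0.86. With any 1 liver left out r stayed between 0.87 and 0.96, and the call was lost without model 3, 4, 6, 7 or 8, with an adjusted exact permutation p up to 0.193. Cxcl13 also gave r = 0.75 with Cxcl16, which did not pass (adjusted exact permutation p = 0.316).

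Cxcl2 and Cxcl3 gave r = 0.88 and rho = 0.83, with adjusted exact permutation p = 0.174 and 0.231, and did not pass. Without model 3 and model 6, the livers farthest from the median of Cxcl2, r was 0.35. Model 6 had the lowest level of both ligands, and without it alone r was 0.56 (adjusted exact permutation p = 0.55), while without model 3 alone r was 0.86. Without model 1 r was 0.97 and the pair passed (adjusted exact permutation p = 0.0134). Cxcl1 and Cxcl2, adjacent genes with the same 11-base run, gave r = 0.45 (adjusted exact permutation p = 0.61), and Cxcl1 counts ranged from 0.450 to 2.57 times those of Cxcl2 across the model livers. The pair with the lowest value, Cxcl9 and Cxcl12, had r = -0.57 and did not pass (adjusted exact permutation p = 0.461). Its sign depended on the livers used. Without model 3 and model 4 r was 0.27, while it was -0.63 without model 2 and model 4 and -0.64 without model 7 and model 8.

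**Figure D4:**
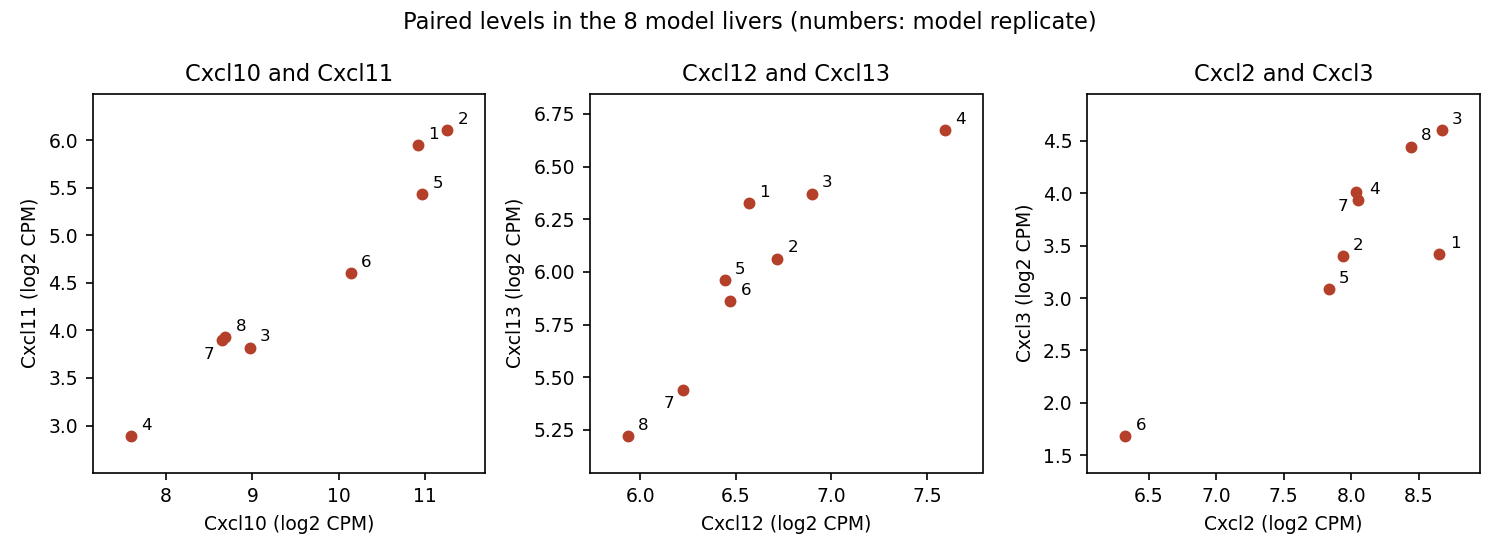
Log2 CPM of paired ligands in the 8 model livers, each point labelled with its replicate number: Cxcl11 against Cxcl10 (r = 0.98), Cxcl13 against Cxcl12 (r = 0.91) and Cxcl3 against Cxcl2 (r = 0.88). In the last, model 6 lies far from the other 7 livers.

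**Figure D5:**
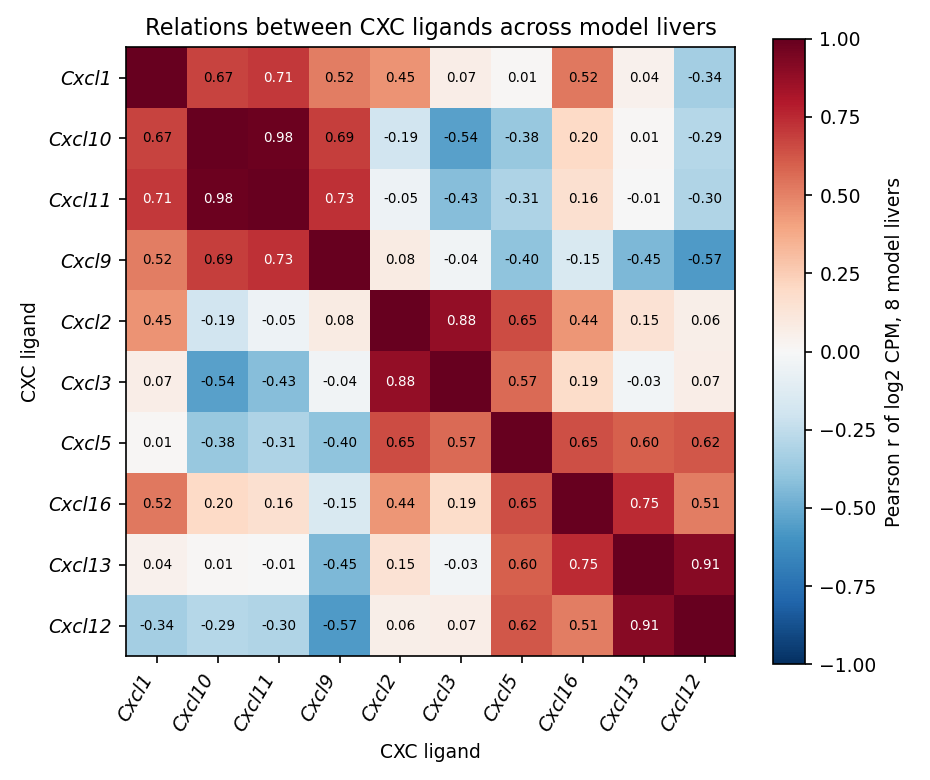
Pearson r of log2 CPM over the 8 model livers for each pair of the 10 ligands, from -1 (blue) to 1 (red); the diagonal is 1 by definition. Values run from -0.57 (Cxcl9 and Cxcl12) to 0.98 (Cxcl10 and Cxcl11).

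Other genes whose levels followed a ligand most closely over the 8 model livers were ranked by Pearson r among 8522 genes, as a description of these livers. The highest r out of 8522 genes over only 8 livers is large by selection alone. No relation to a named gene was tested. The pattern of Cxcl10 was closest to Zfp949 and Klhl25, a ubiquitin ligase adaptor, with r = 0.99 for both, and these led for Cxcl11 as well (0.97 each). Klhl25 spanned 4.68 to 55.7 CPM in the model and was called higher (log2 fold change 1.69, edgeR adjusted p = 0.00544), while Zfp949 did not pass (0.43, edgeR adjusted p = 0.35). Cxcl1 was closest to the complement gene C8b (0.98) and to Nfkbia, the inhibitor that NF-kB induces (0.95). Cxcl3 was closest to Il1a (0.96) and Gps2 (0.93), and Cxcl2 to Dus2 (0.94) and Tysnd1 (0.92). For Cxcl5 the leaders were Mtif2 (0.94) and Phf1 (0.93), and for Cxcl9 Tlcd4 (0.98) and Mx1, an interferon-induced antiviral gene (0.93). Cxcl12 was closest to the myeloid kinase gene Fgr (0.98) and Pgrmc2 (0.97), Cxcl13 to Cdc42ep3 and Tmem25 (0.98 each), and Cxcl16 to Snap47 and Vamp5 (0.98 each).

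Receptors were measured for the same axes. Of 8 receptor genes, 5 passed the low-count filter, 3 were higher and none lower. Cxcr2, the receptor of the ELR-positive ligands and a neutrophil gene, rose from 0.141 ± 0.128 (SD, n = 6) to 49.0 ± 11.9 CPM (SD, n = 8; log2 fold change 8.40, SE 0.45, edgeR adjusted p = 1.67e-10). Cxcr4, the receptor of Cxcl12, rose from 0.842 ± 0.516 to 16.5 ± 6.43 CPM (4.29, SE 0.37), and Ackr3, a scavenger of Cxcl12 and Cxcl11, from 0.673 ± 0.286 to 2.63 ± 1.35 CPM (1.95, SE 0.39). Cxcl12 itself was lower, as given above, while these 2 receptors were higher.

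Few reads came from Cxcr3, the receptor of Cxcl9 and Cxcl10, the ligands with the highest means in the model, and of Cxcl11. It had 19 counts over the 8 model livers and 21 over the 6 controls and was not tested. T and NK cell markers, of cells that carry it, were called higher for 5 of 6 tested genes, but their 8 genes summed to 8.11 to 23.4 CPM in the model and 2.67 to 8.78 CPM in the controls. Cxcr5, the receptor of Cxcl13, had 64 and 16 counts and was not tested, and of 5 tested B and plasma cell markers 1 was higher. Cxcr6, the receptor of Cxcl16, was at 1.56 ± 0.576 and 0.963 ± 0.360 CPM (0.69, edgeR adjusted p = 0.0865), and Ackr1, a decoy receptor, at 2.04 ± 0.754 and 1.16 ± 0.897 CPM (0.87, edgeR adjusted p = 0.067). Cxcr1 had 19 model counts and none in the controls.

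The 5 CXC ligands outside the 10 members included 3 that were tested, all higher. The platelet ligands Ppbp and Pf4 rose by 4.47 (SE 0.63) and 2.85 (SE 0.49) on the log2 scale, to 6.42 ± 4.58 and 7.50 ± 4.96 CPM, and Cxcl14 by 1.62 (SE 0.33). Cxcl15, which lies between Cxcl3 and Cxcl1 in RefSeq order, had 3 counts in the model and none in the controls, and Cxcl17 had none at all. All 4 tested platelet markers were higher, from sums of 1.93 to 2.89 CPM to 7.38 to 48.2 CPM, with Gp1bb at 0 throughout, and 2 of these markers are Ppbp and Pf4 themselves.

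Known inducers of these ligands were mostly higher. Of 15 tested cytokines and transcription factors, 14 were called higher and 1, Irf3, lower (log2 fold change -0.60, SE 0.16). Tnf (8.53, SE 0.80), Il1b (6.81, SE 0.41) and Nfkbiz, an NF-kB cofactor (4.90, SE 0.29), had the largest differences. The interferon gene Ifng had 27 counts over the model livers and none over the controls, Ifnb1 had 9 and 1, and Il17a 2 and none, and these 3 were not tested. The interferon-response factors Irf1 (3.86, SE 0.47) and Irf7 (2.82, SE 0.17) were higher.

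Genes that process, shed or present the ligands were higher in 7 of 10 cases and lower in none. The collagenase Mmp8 and the gelatinase Mmp9, both neutrophil proteases known to trim CXC ligands, rose by 9.99 (SE 0.43) and 6.52 (SE 0.31) on the log2 scale, and Mmp12 by 3.58 (SE 0.47). Mmp8 is also on the list of neutrophil markers. Among the proteases that shed membrane proteins, Adam17 was higher (2.12, SE 0.26), while Adam10 did not pass (1.02, edgeR adjusted p = 0.064). Dpp4, which inactivates Cxcl9, Cxcl10, Cxcl11 and Cxcl12 by cutting their ends, did not pass either, at 62.7 ± 16.5 CPM in the model (SD, n = 8) and 46.0 ± 16.8 CPM in controls (SD, n = 6; edgeR adjusted p = 0.114).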

How the data were processed

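Per the submitters' processing notes, the authors aligned reads with HISAT2 to GRCm39; the deposited files hold raw read counts per gene. For the counting program, its strand setting and its annotation the sources used here state nothing. The 5 closing summary lines of each file, 27.4% to 45.6% of its entries, name no gene and were left out. Genes were filtered with filterByExpr and tested with edgeR 4.0.16 in R 4.3.3 (TMM factors, robust quasi-likelihood fit, group as the only term, Benjamini-Hochberg over 12915 genes), with DESeq2 1.42.0 as an alternative. Log2 CPM used a prior count of 2, and SE is the log2 fold change over the root of F. Fits and permutation tests were tested on simulated data. Library pairs within groups differed beyond sampling noise (smallest chi-square per degree of freedom 23.3 over 43 pairs). Exonic lengths and overlaps came from GENCODE M21 (GRCm38) by gene identifier. The members and gene lists were chosen with earlier results of these data known. Pathway genes named are the receptors, up to 3 called genes per list with the largest change at a mean of at least 1 CPM, and the 2 genes most like each member at 5 CPM or more; other list genes were chosen after their values were seen.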

Additional observations from a re-analysis of the deposited data

Results flagged for a closer look

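A gap test (Dixon, 95%) over the 19 sets of values with any spread, each 1 ligand in 1 group, found 3 sets with a library standing apart; chance gives about 1 in 20. In the model livers, model 4 was highest for Cxcl5, at 14.6 CPM against 7.98 CPM in the next liver, and for Cxcl12, at 193 CPM against 119 CPM. In the controls, control 3 was lowest for Cxcl9, at 5.27 CPM against 9.76 CPM in the next liver.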

How the results depend on the processing

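The 10 members kept their direction and call in each of 21 alternatives per member: library totals, DESeq2 size factors, DESeq2, no low-count filter, the replicate block, each library left out, and model 3 and 4 or model 7 and 8 left out. With the replicate block over the 12 libraries numbered 1 to 6, 9 members were higher and 1 lower, and 2949 and 2207 genes of the whole table. Deviations of same-numbered libraries correlated at -0.34 to 0.36, over 0.1 for 1 of 6 numbers, and 1 model library correlated best with its own number, so the numbers were not taken to pair the samples. With a minimum of 2-fold, 0 members were lower by edgeR (1 at an adjusted p alone) and 1636 genes of the whole table. The log2 fold change of Cxcl12 ranged from -1.23 to -0.76 and that of Cxcl3 from 9.74 (DESeq2) to 10.57. Among member pairs, 0 of 45 passed with Spearman (6 at an unadjusted permutation p under 0.05), 0 without model 7 and model 8 (9 unadjusted) and 0 without model 3 and model 4 (10 unadjusted). With 6 livers the smallest possible exact p is 0.00139, or 0.0625 after adjustment for a lone pair, so the last counts say little. Leaving out 1 model liver gave 0 to 3 pairs (0 without model 4 or model 6, with 7 and 4 unadjusted), and leaving out any 1 of the 14 libraries gave 2975 to 3983 genes higher and 2452 to 2809 lower over the whole table. The cause of these shifts was not tested. Depth limits the controls' values of Cxcl2, Cxcl3 and Cxcl5, which rest on 0 to 3 counts.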
